A study of Homo sapiens with 12 samples.

Results

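The 10 genes described here encode telomerase proteins (TERT, DKC1, NOP10 and WRAP53) and the 6 shelterin proteins (TERF1, TERF2, TERF2IP, TINF2, POT1 and ACD). They were taken by gene symbol, a rule that uses no measured value although earlier results of these data were known, and all 10 were found among the 14698 genes of the count table. RNA of T98-G, an established human glioblastoma cell line, was sequenced after 48 h with 0.1% DMSO in normoxia (20% oxygen), 0.1% DMSO in hypoxia (1% oxygen), 1 µM onametostat in normoxia or 1 µM onametostat in hypoxia. Onametostat inhibits PRMT5, an arginine methyltransferase that acts on histones, splicing proteins and other targets. Each condition held 3 libraries from 3 independent experiments of the same cell line, so the spread covers repeats of a single line and not different tumours, and all libraries were of polyadenylated RNA.

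Telomerase adds telomeric repeats to chromosome ends. TERT is its reverse transcriptase, DKC1 and NOP10 belong to the H/ACA proteins that stabilise the telomerase RNA and other small RNAs, and WRAP53 brings the RNA to Cajal bodies. In shelterin, TERF1 and TERF2 bind double-stranded telomeric DNA, TERF2IP joins TERF2, POT1 binds the single-stranded overhang together with ACD, and TINF2 links TERF1 and TERF2 to ACD. TERT is silent in most somatic tissues and is commonly expressed again in glioblastoma. The telomerase RNA gene TERC is not among the genes analysed here, so the results concern messenger RNA of the proteins and not telomerase activity or telomere length.

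Total counts were 18154073 to 45977729 in 10 libraries. The other libraries were both from onametostat in hypoxia, with 7641280 counts in library 2 and 403279 in library 3. In library 3, 2978 genes had no count, and a single count was worth 2.69 CPM (reads of a gene per 1e6 counted, scaled with TMM factors). The upper limit for a count of 0 was set at 3 counts, or 8.07 CPM in library 3. The values of library 3 are therefore given with each gene, and the drug effects in hypoxia are also given without it. Among the markers of the cell type, VIM and CD44, which mark mesenchymal cells, had means of 1317 to 1450 CPM and 1566 to 1876 CPM in the 4 conditions, whereas the glial marker OLIG2 had 0.687 to 1.51 CPM. NES, GFAP and SOX2 are not among the genes analysed here, nor are PTPRC, CD14, EPCAM, PECAM1 and RBFOX3, which are 5 of 6 markers of other cell types. KRT18, an epithelial keratin and the only one of the 6 that was measured, had condition means of 101 to 190.4 CPM, with log2 fold changes of -0.24 and -0.31 with the drug in normoxia and hypoxia and of 0.68 and 0.60 for hypoxia with DMSO and onametostat, and passed the test each time. Its part in the results was not tested. PRMT5, the target of the drug, had 65.2 ± 0.645 CPM with DMSO against 87.5 ± 2.37 CPM with the drug in normoxia, and 57.8 ± 1.47 against 72.0 ± 3.46 CPM in hypoxia (mean ± SD, n = 3), or 68.3 and 75.1 CPM in libraries 1 and 2 of the last group.

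Directions follow the labels of the libraries, and markers of hypoxia went with the oxygen label only in part. Of 8 such markers, 4 were higher and 1 lower in the libraries labelled hypoxia under DMSO, and 0 were higher and 4 lower under onametostat (edgeR, adjusted p under 0.05), over all-gene shares of 14.1% higher and 13.9% lower, and of 7.69% and 6.16%. NDRG1, EGLN3, PDK1 and ANKRD37 were the ones higher with DMSO, at log2 fold changes of 0.48, 0.53, 0.16 and 0.36, and VEGFA, the angiogenic growth factor, had -0.47. CA9, a carbonic anhydrase induced by low oxygen, had 0.06 with DMSO, which did not pass, and -0.62 with onametostat. The part of these markers in the values of the 10 genes was not tested.

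The upstream sequences of NOP10 and TINF2 are shown because NOP10 alone passed the test in each of the 4 pairwise comparisons and TINF2 had the smallest adjusted p of the 10 genes in normoxia. RefSeq promoter windows (GRCh38.p14, 250 bases before the start to 50 after it) matched 8 of the 10 genes, all but TERF1 and TERF2, and the printed stretches stop before the transcribed bases. Both genes lie on the minus strand, and the stretches are chr15:34343181-34343386 for NOP10 and chr14:24242675-24242924 for TINF2. Capitals mark an E-box (CACGTG, bound by MYC and related factors) in the former, and a GC box and a CCAAT box, both read on the opposite strand (CCGCCC and ATTGG), in the latter.
NOP10: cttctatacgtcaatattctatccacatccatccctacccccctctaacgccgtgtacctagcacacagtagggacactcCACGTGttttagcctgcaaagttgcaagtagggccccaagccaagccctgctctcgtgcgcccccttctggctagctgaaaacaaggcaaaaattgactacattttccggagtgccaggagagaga
TINF2: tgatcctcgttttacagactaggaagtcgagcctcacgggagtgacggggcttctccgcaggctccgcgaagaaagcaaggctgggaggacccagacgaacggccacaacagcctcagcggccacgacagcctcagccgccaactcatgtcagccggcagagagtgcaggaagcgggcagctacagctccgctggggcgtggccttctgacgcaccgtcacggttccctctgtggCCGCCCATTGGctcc
Searched on both strands, the E-box was in the windows of TERT and NOP10 and in 7.26% of all 35116 windows. The GC box (GGGCGG) was in at least 1 window of each of the 8 genes and in 45% of all windows, and the CCAAT box in at least 1 window of NOP10, WRAP53 and TINF2 and in 34.6%. The telomere repeat TTAGGG was in 1 window of WRAP53 and in 9.05% of all. WRAP53 has 3 windows, of which 1 holds the GC box, 1 the CCAAT box and 1 the repeat, and a gene with more windows has more chances of a match than the share per window. A match is a run of letters and not a site shown to be bound.

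With onametostat in normoxia, 5 of the 10 genes were higher (DKC1, NOP10, WRAP53, TERF2 and TERF2IP) and 3 were lower (TERF1, TINF2 and ACD) at an adjusted p under 0.05 from edgeR's quasi-likelihood test, over a background of 27.2% of all genes higher and 29.3% lower. In hypoxia, 5 were higher with the drug (TERT, DKC1, NOP10, WRAP53 and TERF2) and 2 were lower (TERF1 and TINF2), against 25.6% and 26.4% of all genes. Without library 3 of onametostat in hypoxia these counts stayed at 5 and 2, against 26.7% and 27%. Hypoxia itself left 0 genes higher and 5 lower with DMSO (TERT, DKC1, NOP10, POT1 and ACD), against 14.1% and 13.9%, and with onametostat 0 higher and 1 lower (NOP10), against 7.69% and 6.16%. In both oxygen comparisons the count of higher genes was 0 also at an unadjusted p under 0.05 and with DESeq2 and limma voom. These tests use the same libraries, and nothing is read from 0 of 10 genes beside shares of 14.1% and 7.69%. The median log2 fold changes of the 10 genes were 0.129 and 0.224 for the drug in normoxia and hypoxia, and -0.12 and -0.0974 for hypoxia with DMSO and onametostat, where those of all genes lay within 0.02 of 0. A differentially expressed gene (DEG) also has an absolute log2 fold change above 1, and by this rule TINF2 was a lower DEG of onametostat in normoxia (background 4.35% of genes) and in hypoxia (5.44%). TERT was a higher DEG of onametostat in hypoxia (2.08%) and a lower DEG of hypoxia with DMSO (0.231%).

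**Figure D1:**
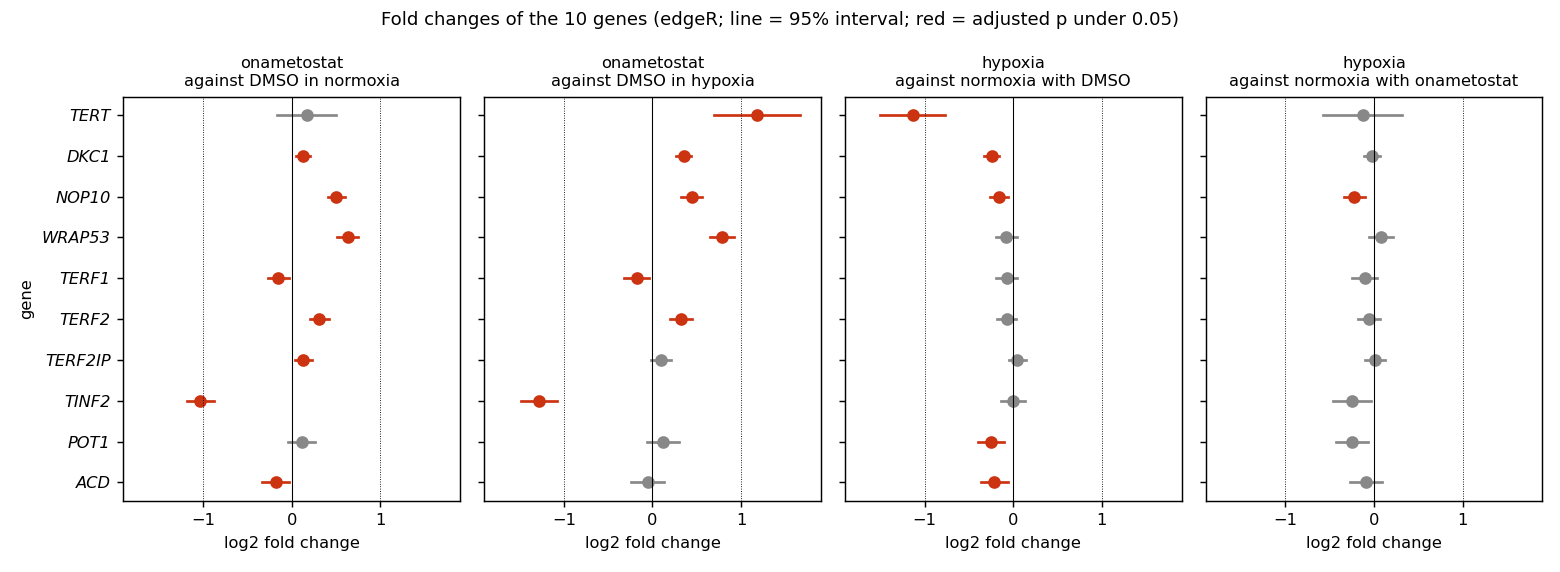
Log2 fold changes of the 10 genes (rows) in the 4 comparisons (panels), with 95% intervals from edgeR and dotted lines at a log2 fold change of 1 in either direction. Red points passed the test, and TINF2 (-1.03 and -1.28) and TERT (1.18 and -1.13) lie beyond the dotted lines.

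Gaps between the libraries of compared conditions, given below for single genes, were common. All drug libraries lay above all DMSO libraries for 31.2% of all genes in normoxia and 20.9% in hypoxia, and below for 33.2% and 27.5%. All hypoxia libraries lay above all normoxia libraries for 22% and below for 23.3% with DMSO, and for 11.8% and 14.7% with onametostat. The onametostat effects in normoxia and hypoxia share no library. The comparisons of onametostat in hypoxia and of hypoxia with DMSO share the 3 libraries of DMSO in hypoxia, so a gene that is low in these libraries moves in opposite directions in both. In the same way, onametostat in normoxia and hypoxia with DMSO are both set against the 3 libraries of DMSO in normoxia. A gene that is high in those libraries moves down in both. A test of the difference between the drug effects at the 2 oxygen levels (edgeR's interaction term) called 0 of the 10 genes, against 0.497% of all genes. At an unadjusted p under 0.05 it called 2, TERT and DKC1, while DESeq2 and limma voom each called 1, DKC1, and DESeq2 gave TERT no adjusted p in this test.

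TERT (ENSG00000164362; chromosome 5 from 1253147 to 1295068, minus strand, GRCh38) was the least expressed of the 10 genes, and its raw read counts bound what can be said. Libraries 1 to 3 held 39, 95 and 47 reads of TERT with DMSO in normoxia and 22, 42 and 44 with DMSO in hypoxia. With onametostat they held 45, 93 and 49 reads in normoxia and 42, 18 and 0 in hypoxia. Scaled to library size, the levels were 1.70, 2.26 and 2.05 CPM with DMSO in normoxia and 0.959, 0.892 and 0.943 CPM with DMSO in hypoxia. With onametostat they were 2.49, 2.20 and 2.27 CPM in normoxia and 2.03 and 2.39 CPM in libraries 1 and 2 in hypoxia, while library 3 can only bound the level at 8.07 CPM. The 3 libraries of DMSO in hypoxia thus lay below all the others except the uninformative library 3, and the remaining conditions overlapped. Summed over libraries, the exact Poisson 95% intervals were 1.77 to 2.38 CPM (181 reads) for DMSO in normoxia, 0.759 to 1.12 (108 reads) for DMSO in hypoxia, 1.97 to 2.64 (187 reads) for the drug in normoxia and 1.6 to 2.7 (60 reads) for onametostat in hypoxia. These intervals and limits cover counting error only.

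**Figure D2:**
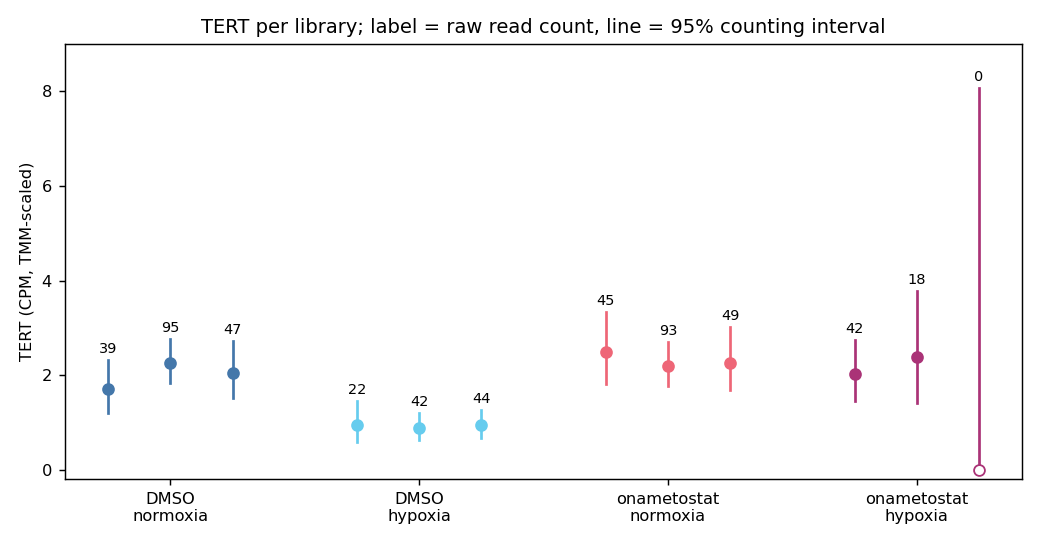
TERT level (CPM with TMM factors, vertical axis) in each of the 12 libraries, grouped by condition, with raw read counts as labels. Lines are exact Poisson 95% intervals, except for the library with 0 reads. The open point is library 3 of onametostat in hypoxia, where the upper limit for 0 reads was set at 3 counts (8.07 CPM). The 3 libraries of DMSO in hypoxia lie at 0.892 to 0.959 CPM.

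By edgeR's quasi-likelihood test, TERT was lower in hypoxia than in normoxia with DMSO, by a log2 fold change of -1.13 (standard error, SE, 0.173, adjusted p = 0.000148), that is 0.456 times the normoxic level. With onametostat the same comparison gave -0.13 (95% interval -0.57 to 0.32, adjusted p = 0.767). In hypoxia TERT was higher with onametostat by 1.18 (SE 0.230, adjusted p = 0.000386), or 2.26-fold, and in normoxia the value was 0.17 (95% interval -0.16 to 0.51, adjusted p = 0.406). Without library 3 of onametostat in hypoxia the rise was 1.20 (adjusted p = 0.000229), and without libraries 2 and 3, where library 1 stands alone, 1.12 (adjusted p = 0.00221). The drug effects at the 2 oxygen levels differed by 1.01 (95% interval 0.42 to 1.59, unadjusted p = 0.00208), which did not pass after adjustment over 14698 genes (adjusted p = 0.115). Leaving out any of the 12 libraries kept both calls of TERT, with log2 fold changes of -1.23 to -1.01 for hypoxia with DMSO and 1.09 to 1.29 for onametostat in hypoxia. In bulk RNA, a lower level in each cell and fewer cells with the transcript cannot be told apart.

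The 3 other telomerase genes rose with onametostat at both oxygen levels. WRAP53 (ENSG00000141499; chromosome 17 from 7686071 to 7703502, plus strand) had 35.5, 33.1 and 35.4 CPM with DMSO in normoxia and 53.9, 50.9 and 56.4 CPM with onametostat. In hypoxia it had 31.9, 32.9 and 33.3 CPM with DMSO and 57.2, 53.7 and 72.6 CPM with the drug, where the last value rests on 27 reads. Every onametostat library lay above every DMSO library, as was the case for 31.2% of all genes within normoxia and 20.9% within hypoxia. The log2 fold changes were 0.63 (SE 0.0570, adjusted p = 7.30e-08, edgeR) in normoxia and 0.79 (SE 0.0648, adjusted p = 3.68e-08) in hypoxia, and hypoxia gave -0.08 (adjusted p = 0.330) with DMSO and 0.07 (adjusted p = 0.498) with onametostat. In the GENCODE v44 annotation, 1392 exon bases of WRAP53, 23.2% of the total, are shared with a gene on the opposite strand. Counting did not use the strand, and how many reads of WRAP53 lie within these bases is not known. The part of this overlap in the rise was not tested.

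NOP10 (ENSG00000182117; chromosome 15 from 34339159 to 34343180, minus strand), the smallest H/ACA protein, had 51.2, 50.7 and 47.4 CPM with DMSO in normoxia and 45.3, 43.8 and 44.8 CPM with DMSO in hypoxia. With onametostat it had 72.5, 73.8 and 65.6 CPM in normoxia and 59.9, 62.0 and 56.5 CPM in hypoxia, the last from 21 reads. The 4 conditions did not overlap, and the order from low to high was DMSO in hypoxia, DMSO in normoxia, onametostat in hypoxia and onametostat in normoxia. The share of all genes with 4 separate conditions was not taken. In single comparisons, 31.2% and 20.9% of all genes lay wholly above DMSO with the drug in normoxia and hypoxia. Wholly below normoxia in hypoxia lay 23.3% with DMSO and 14.7% with onametostat. The drug raised NOP10 by 0.50 (SE 0.0473, adjusted p = 1.15e-07, edgeR) in normoxia and 0.44 (SE 0.0553, adjusted p = 4.11e-06) in hypoxia. With hypoxia the log2 fold changes were -0.16 (adjusted p = 0.0179) with DMSO and -0.22 (adjusted p = 0.0135) with onametostat. The call with DMSO was lost when DMSO normoxia library 1 or 2 or DMSO hypoxia library 2 or 3 was left out (adjusted p up to 0.0973), and that with onametostat when onametostat normoxia library 2 or onametostat hypoxia library 1 was left out (adjusted p up to 0.158).

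DKC1 (ENSG00000130826; chromosome X from 154762742 to 154777689, plus strand), the pseudouridine synthase of the H/ACA particles, was the most abundant of the 10 genes by CPM. It had 195, 195 and 193 CPM with DMSO in normoxia and 157, 172 and 164 CPM with DMSO in hypoxia. With onametostat it had 213, 210.5 and 213 CPM in normoxia and 213, 205 and 212.5 CPM in hypoxia, the last from 79 reads. The DMSO libraries in hypoxia were the lowest and all 6 onametostat libraries the highest. Drug libraries lay wholly above DMSO libraries for 31.2% of all genes within normoxia and 20.9% within hypoxia. The log2 fold changes with the drug were 0.13 (SE 0.0390, adjusted p = 0.0103, edgeR) in normoxia and 0.35 (SE 0.0424, adjusted p = 2.87e-06) in hypoxia. With hypoxia DKC1 had -0.24 (SE 0.0390, adjusted p = 0.000229) under DMSO and -0.02 (95% interval -0.11 to 0.07, adjusted p = 0.910) under onametostat. With library sizes alone, without TMM factors, the normoxic drug effect was 0.10 and was lost (adjusted p = 0.0561). The difference between the drug effects was 0.22 (95% interval 0.10 to 0.34) with an adjusted p of 0.0934, and passed without library 3 of onametostat in hypoxia (0.22, adjusted p = 0.0480), with DESeq2 (adjusted p = 0.0213) and with limma voom (adjusted p = 0.0349), while over all alternatives the adjusted p ran from 0.0213 to 0.261.

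TINF2 (ENSG00000092330; chromosome 14 from 24238286 to 24242663, minus strand), the hub that holds the shelterin proteins together, fell with onametostat to less than 0.5 times its DMSO level. Libraries 1 to 3 held 17.5, 16.7 and 16.9 CPM with DMSO in normoxia and 8.57, 8.62 and 7.70 CPM with onametostat. In hypoxia they held 16.4, 17.5 and 17.1 CPM with DMSO and 7.24, 6.64 and 5.38 CPM with the drug, from 150, 50 and 2 reads. The highest onametostat library was thus at 8.62 CPM and the lowest DMSO library at 16.4 CPM. The log2 fold changes were -1.03 (SE 0.0720, adjusted p = 3.55e-09, edgeR) in normoxia, a fold of 0.490, and -1.28 (SE 0.0946, adjusted p = 1.05e-08) in hypoxia, a fold of 0.412. Without library 3 of onametostat in hypoxia the latter was -1.27 (adjusted p = 1.19e-09). Leaving out each library in turn gave -1.07 to -0.98 in normoxia and -1.37 to -1.25 in hypoxia, so the call held throughout, but the normoxic value of -0.98, obtained when onametostat normoxia library 3 was left out, no longer met the DEG rule.

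Hypoxia gave a log2 fold change of 0.00 for TINF2 with DMSO (95% interval -0.14 to 0.14, adjusted p = 0.996, edgeR) and of -0.25 with onametostat (95% interval -0.46 to -0.03, adjusted p = 0.131). The drug effects at the 2 oxygen levels differed by -0.25 (95% interval -0.50 to 0.01, adjusted p = 0.394). In the GENCODE v44 annotation, 957 exon bases of TINF2, 21.9% of the total, are shared with GMPR2, a guanosine monophosphate reductase gene on the opposite strand. Counting did not use the strand, so reads that lie within these shared bases cannot be assigned by it, and how many of the reads do so is not known. GMPR2 had log2 fold changes of -0.13 (adjusted p = 0.185) and -0.23 (adjusted p = 0.0562) with onametostat in normoxia and hypoxia, neither of which passed. Of the 33 annotated transcripts of TINF2, 18 retain an intron, and counts per gene do not tell them from the spliced messenger RNA. The same limit holds for other genes, such as ACD (22 of 44) and DKC1 (15 of 32), while NOP10 and TERF2IP have 0 such transcripts.

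Without library 3 of onametostat in hypoxia, the drug effects in hypoxia of the other genes kept their side of the threshold. WRAP53 had 0.77 (adjusted p = 6.48e-10, edgeR), NOP10 0.45 (adjusted p = 1.69e-06), DKC1 0.35 (adjusted p = 3.51e-07), TERF2 0.33 (adjusted p = 0.000101) and TERF1 -0.18 (adjusted p = 0.0246). TERF2IP had 0.09 (adjusted p = 0.171), POT1 0.10 (adjusted p = 0.339) and ACD -0.05 (adjusted p = 0.626), which did not pass.

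**Figure D3:**
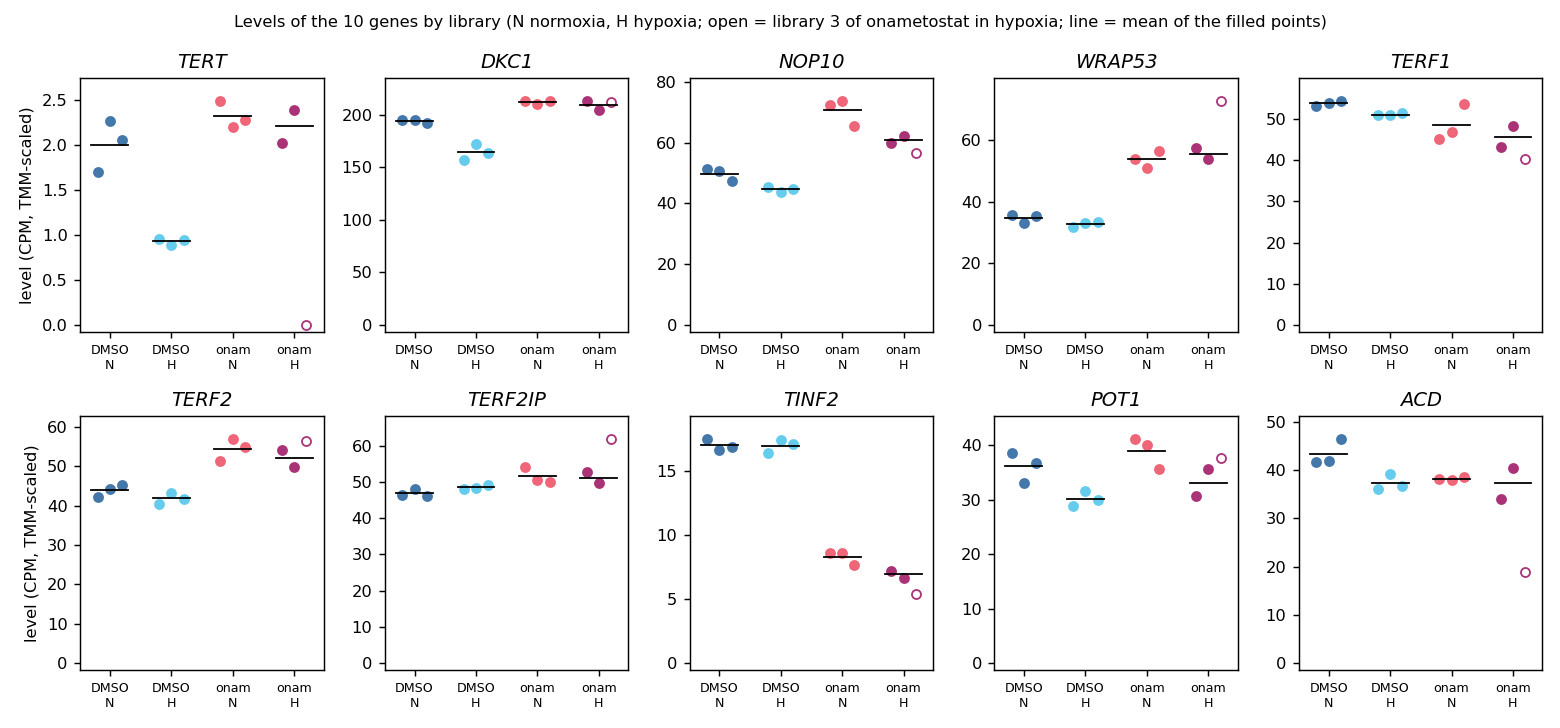
Level of each of the 10 genes (CPM with TMM factors, vertical axes from 0, a separate scale per gene) in the 3 libraries of each condition, with lines at the mean of the filled points. Open points are library 3 of onametostat in hypoxia, with 403279 counts, and TINF2 shows a gap between its lowest DMSO library at 16.4 CPM and its highest onametostat library at 8.62 CPM.

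The telomeric DNA-binding proteins moved in opposite directions with onametostat, by smaller amounts. TERF2 (ENSG00000132604; chromosome 16 from 69355567 to 69408571, minus strand), which protects chromosome ends from being joined, had 42.3, 44.3 and 45.4 CPM with DMSO and 51.4, 57.0 and 54.8 CPM with onametostat in normoxia. In hypoxia it had 40.5, 43.3 and 41.8 CPM with DMSO and 54.1, 49.95 and 56.5 CPM with the drug, the last from 21 reads. All onametostat libraries lay above all DMSO libraries, as was the case for 31.2% of all genes within normoxia and 20.9% within hypoxia. Its log2 fold changes were 0.31 (SE 0.0507, adjusted p = 5.90e-05, edgeR) and 0.33 (SE 0.0588, adjusted p = 0.000178). Hypoxia gave -0.07 (adjusted p = 0.320) with DMSO and -0.05 (adjusted p = 0.608) with onametostat.

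TERF1 (ENSG00000147601; chromosome 8 from 73008856 to 73048123, plus strand), a negative regulator of telomere length, had 53.1, 53.7 and 54.3 CPM with DMSO and 45.1, 46.8 and 53.6 CPM with onametostat in normoxia. In hypoxia it had 50.9, 50.8 and 51.3 CPM with DMSO and 43.2, 48.2 and 40.4 CPM with the drug, the last from 15 reads. Library 3 of onametostat in normoxia lay within the DMSO range there, and in hypoxia the groups did not overlap. The log2 fold changes were -0.15 (SE 0.0561, adjusted p = 0.0320, edgeR) and -0.18 (SE 0.0666, adjusted p = 0.0319). The normoxic call was lost when DMSO normoxia library 1, 2 or 3, DMSO hypoxia library 1 or 3, or onametostat normoxia library 1 or 2 was left out (adjusted p 0.0529 to 0.164). The hypoxic call was lost when DMSO hypoxia library 1, 2 or 3 or onametostat hypoxia library 1 was left out (adjusted p 0.0566 to 0.402). Processed pseudogenes of TERF1 are annotated, so reads that also match near-identical copies may be missing from its counts.

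TERF2IP, also known as RAP1 (ENSG00000166848; chromosome 16 from 75647773 to 75761872, plus strand), moved little between conditions. It had 46.2 to 48.1 CPM with DMSO against 49.9 to 54.2 CPM with the drug in normoxia, and 48.1 to 49.2 against 49.7 to 61.9 CPM in hypoxia, the highest value from 23 reads. Its log2 fold change with the drug was 0.13 (SE 0.0466, adjusted p = 0.0234, edgeR) in normoxia and 0.10 (95% interval -0.02 to 0.21, adjusted p = 0.148) in hypoxia. The normoxic call was lost when DMSO normoxia library 1 or 3 was left out (adjusted p = 0.0673 and 0.0789), when onametostat normoxia library 1 was (adjusted p = 0.110) with DESeq2 (adjusted p = 0.0942) and with library sizes alone (adjusted p = 0.0691). Hypoxia gave 0.05 (adjusted p = 0.488) with DMSO and 0.01 (adjusted p = 0.939) with onametostat.

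The single-strand binding pair of POT1 and ACD was lower in hypoxia with DMSO. POT1 (ENSG00000128513; chromosome 7 from 124822386 to 124929983, minus strand) had 38.6, 33.1 and 36.8 CPM in normoxia and 28.9, 31.7 and 30.0 CPM in hypoxia with DMSO. With onametostat it had 41.2, 40.0 and 35.7 CPM in normoxia and 30.8, 35.6 and 37.7 CPM in hypoxia, the last from 14 reads. The DMSO groups did not overlap and the onametostat groups did. The log2 fold changes with hypoxia were -0.25 (SE 0.0713, adjusted p = 0.0140, edgeR) with DMSO and -0.24 (SE 0.0864, adjusted p = 0.0707) with onametostat. The former was lost when DMSO normoxia library 1 was left out (-0.20, adjusted p = 0.0696). The latter passed when onametostat normoxia library 3 (-0.30, adjusted p = 0.0356), onametostat hypoxia library 2 (-0.32, adjusted p = 0.0446) or onametostat hypoxia library 3 (-0.27, adjusted p = 0.0333) was left out. With the drug, POT1 had 0.11 (95% interval -0.04 to 0.27) in normoxia and 0.12 (95% interval -0.06 to 0.30) in hypoxia, which did not pass.

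ACD (ENSG00000102977; chromosome 16 from 67657512 to 67660810, minus strand) encodes TPP1, the partner of POT1 that recruits telomerase. It had 41.6, 41.9 and 46.5 CPM in normoxia and 36.2, 39.1 and 36.7 CPM in hypoxia with DMSO. With onametostat it had 38.2, 38.0 and 38.6 CPM in normoxia and 34.0, 40.5 and 18.8 CPM in hypoxia, the last from 7 reads. The DMSO libraries in normoxia were the highest. They are the reference both for hypoxia with DMSO and for the drug in normoxia, so these 2 decreases are not independent of each other. The log2 fold changes were -0.21 (SE 0.0713, adjusted p = 0.0349, edgeR) for hypoxia with DMSO, -0.18 (SE 0.0725, adjusted p = 0.0455) for the drug in normoxia and -0.06 (95% interval -0.24 to 0.13) for onametostat in hypoxia. The call for hypoxia was lost when DMSO normoxia library 2 or 3 or DMSO hypoxia library 1 or 3 was left out (adjusted p up to 0.159). The call for onametostat was lost when any of the same 4 libraries or any onametostat normoxia library was left out (adjusted p up to 0.196). DESeq2 called neither, with adjusted p of 0.108 and 0.109, and library sizes alone lost that for hypoxia (adjusted p = 0.0600).

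Levels can be set between genes only per length. Per kilobase of the canonical transcript, and with DMSO in normoxia, NOP10 had 98.2 ± 4.06 and DKC1 78.7 ± 0.646 CPM per kb (mean ± SD, n = 3), far above ACD at 28.7 ± 1.82, TERF2IP at 22.0 ± 0.480 and WRAP53 at 19.8 ± 0.768. TERF1 had 16.1 ± 0.180, TERF2 14.7 ± 0.515, TINF2 9.46 ± 0.25 and POT1 9.21 ± 0.710 CPM per kb, and TERT had 0.496 ± 0.0707. The ranges of TINF2 (9.26 to 9.74) and POT1 (8.44 to 9.83) overlapped in this order, whereas those of the other neighbours did not. The order depends on the length used. Per kilobase of all annotated exons, with DMSO in normoxia, TERF2 had a mean of 7.81, WRAP53 5.77, POT1 4.15, TINF2 3.89 and TERF1 3.42 CPM per kb. Per kilobase of the canonical transcript, TINF2 lay below POT1 in both drug conditions. The means were 4.61 ± 0.287 against 9.93 ± 0.742 CPM per kb in normoxia and 3.56 ± 0.526 against 8.84 ± 0.902 in hypoxia. Of the summed shelterin CPM per kb, TINF2 made up 9.45 ± 0.355% with DMSO against 4.76 ± 0.293% with the drug in normoxia, and 10.0 ± 0.107% against 3.96 ± 0.475% in hypoxia. TERF2 took 14.7 ± 0.349% and 18.8 ± 0.940% in normoxia, and 14.9 ± 0.159% and 20.0 ± 2.22% in hypoxia. In libraries 1 and 2 of onametostat in hypoxia alone, TINF2 had 3.69 to 4.02 and POT1 7.84 to 9.07 CPM per kb, and the shares were 3.92% to 4.46% for TINF2 and 17.7% to 20.05% for TERF2. These shares describe messenger RNA, rest on a single transcript length per gene and were not tested.

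**Figure D4:**
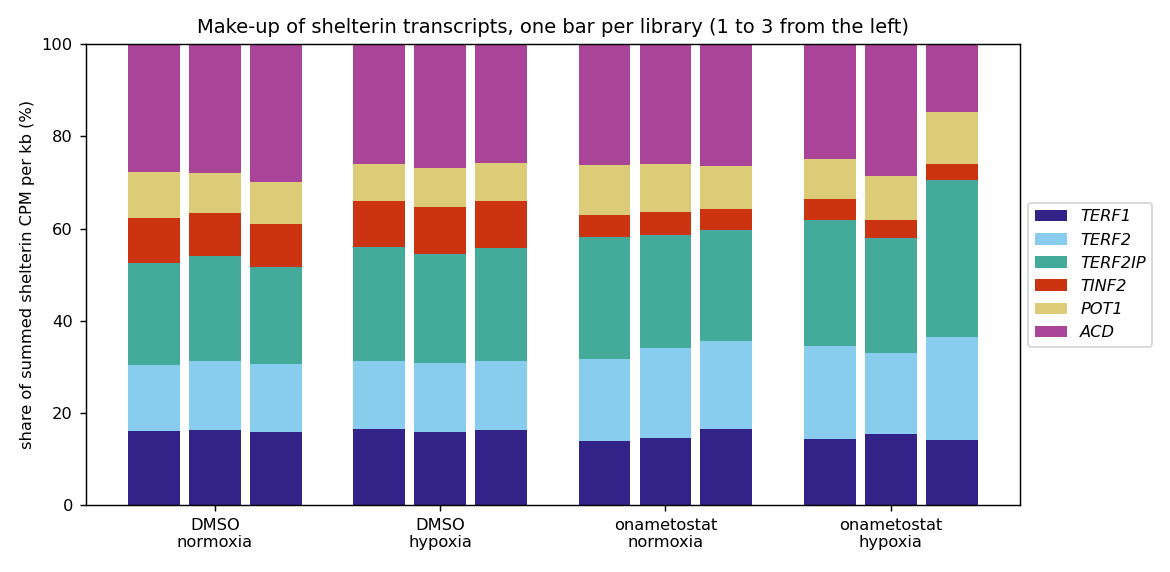
Share of each shelterin gene in the summed CPM per kb of the 6 genes (vertical axis, %), with 1 bar per library. TINF2 (red) takes 9.14% to 10.1% in the 6 DMSO libraries and 3.51% to 4.93% in the 6 onametostat libraries.

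Among 55 other measured genes of telomere biology in 6 lists, 19 were higher and 15 lower with onametostat in normoxia, 26 and 12 did so in hypoxia, and under DMSO alone hypoxia gave 6 higher and 22 lower, with medians of 0.0156, 0.146 and -0.116 on the log2 scale. The shares of all genes were 27.2% higher and 29.3% lower, 25.6% and 26.4%, and 14.1% and 13.9% in these comparisons, so the counts with onametostat in normoxia are near the background and nothing is read from them. Without library 3 of onametostat in hypoxia the count there was 26 higher and 11 lower. Of the 7 other H/ACA proteins and assembly factors, 5 were higher with onametostat in normoxia (27.2% of all genes) and 6 in hypoxia (25.6%), and 5 were lower in hypoxia with DMSO (13.9%), while the others did not pass. These are the directions that DKC1 and NOP10 also took. GAR1, a core protein of the mature particle, had a log2 fold change of 0.51 (adjusted p = 4.37e-05, edgeR) and NAF1, an assembly factor, of 0.49 (adjusted p = 0.000140) with onametostat in hypoxia. Of 9 measured genes of telomerase RNA maturation, 5 were higher in normoxia and 7 in hypoxia with the drug, led by ZCCHC8, a subunit of the nuclear exosome targeting complex (0.51, adjusted p = 8.75e-06, and 0.60, adjusted p = 1.01e-05). With hypoxia and DMSO, 4 were lower, among them TOE1, a deadenylase that trims the telomerase RNA (-0.31, adjusted p = 7.83e-05).

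The list of the CST complex and DNA polymerase α-primase, which fill in the telomeric C-strand, held mostly lower genes with onametostat. Of 6 measured genes, 1 was higher and 4 were lower in normoxia (27.2% and 29.3% of all genes), and 0 and 4 in hypoxia (25.6% and 26.4%). For hypoxia with DMSO 1 was higher, CTC1, and 3 were lower (14.1% and 13.9%). POLA1, the catalytic subunit of the polymerase, had log2 fold changes of -0.95 (adjusted p = 1.39e-10, edgeR) and -0.76 (adjusted p = 2.26e-08), and POLA2, its accessory subunit, of -0.88 (adjusted p = 2.63e-06) and -0.87 (adjusted p = 7.84e-05). CTC1, the largest CST subunit, had -0.51 (adjusted p = 0.000124) and -0.70 (adjusted p = 5.64e-05). The polymerase also copies the rest of the genome, and of 14 proliferation markers 4 were higher and 8 lower with onametostat in normoxia, 6 and 6 in hypoxia, and 2 and 8 in hypoxia with DMSO. The part of proliferation in the values above was not tested.

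Of 16 telomere accessory factors, 4 were higher and 6 lower under the drug in normoxia, and 5 and 3 in hypoxia, shares near those of all genes (27.2% and 29.3%, 25.6% and 26.4%) for the most part, so nothing is read from the counts. HMBOX1, which binds double-stranded telomeric repeats, rose by 0.58 (adjusted p = 0.000278, edgeR) and 0.68 (adjusted p = 0.000270), and SAMHD1, a dNTP hydrolase, fell by 0.72 (adjusted p = 4.39e-08) and 0.65 (adjusted p = 1.38e-06) on the log2 scale. With hypoxia and DMSO 2 were higher and 5 lower, against 14.1% and 13.9% of all genes. There TNKS, the tankyrase that releases TERF1 from telomeres, rose by 0.21 (adjusted p = 0.000565) while EXO1, a 5′ exonuclease, had -0.41 (adjusted p = 1.31e-06). In telomeric chromatin, 2 of 7 genes were higher and 2 lower under the drug in normoxia, against 4 and 2 in hypoxia. DAXX, a chaperone of histone H3.3, rose by 0.48 (adjusted p = 8.75e-08) and ASF1B, a chaperone of new histones, had -0.78 (adjusted p = 3.78e-09) in normoxia. ATRX, the chromatin remodeller that works with DAXX, was higher in hypoxia by 0.40 (adjusted p = 3.46e-05) with DMSO and 0.39 (adjusted p = 0.000340) with onametostat.

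Among 10 transcription factors known to act on the TERT gene, 2 were higher and 3 lower with onametostat in normoxia, 4 and 3 in hypoxia, 2 and 3 in hypoxia with DMSO, and 2 and 1 in hypoxia with onametostat. The shares of all genes were 27.2% higher and 29.3% lower, 25.6% and 26.4%, 14.1% and 13.9%, and 7.69% and 6.16% in these comparisons. Nothing is read from these counts of a few genes beside such shares. MYC, an activator of TERT, had log2 fold changes of -0.58 (adjusted p = 1.77e-07, edgeR) and -0.30 (adjusted p = 0.00111) in hypoxia with DMSO and onametostat. MXD1, its antagonist, rose with onametostat by 0.48 (adjusted p = 0.00167) in normoxia and 0.44 (adjusted p = 0.0113) in hypoxia. CTCF and ETS1 were higher in hypoxia with onametostat by 0.25 (adjusted p = 0.00162) and 0.17 (adjusted p = 0.0198).

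The genes whose levels followed TINF2 most closely were found over the 11 libraries other than library 3 of onametostat in hypoxia, as the smallest root mean square difference of centred log2 CPM. They were ATOH8 (0.0785), RTL10 (0.0869), SPATA6 (0.0903), LINC00667 (0.0925) and the gene ENSG00000170846 (0.0926), where the spread of TINF2 itself was 0.573 on the same scale. ATOH8 encodes a basic helix-loop-helix transcription factor and LINC00667 a non-coding RNA. In onametostat against DMSO they had log2 fold changes of -0.92 to -1.12 in normoxia and -1.18 to -1.27 in hypoxia. This is a description of the same libraries, in which treatment and depth are shared by all genes.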

How the data were processed

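The authors counted reads per gene with featureCounts in its default mode, after trimming by fastp and alignment by STAR, and kept the genes that passed filterByExpr. The table they deposited is named normalized but holds unscaled whole-number counts, and 0 of its columns were left unused. Submitters' notes name STAR 2.7.10a and GRCh37, the methods GRCh38. Positions are those of GENCODE 44 on GRCh38 and build was not settled. The labels and methods also differ in the RNA input.

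From the counts, edgeR 4.0.16 (R 4.3.3) was fitted to 12 libraries in 4 conditions with TMM factors, and its quasi-likelihood test was adjusted by the Benjamini-Hochberg method over all 14698 genes, of which none was filtered. DESeq2 1.42.0, limma 3.58.1 voom, other scalings, filters, a replicate block, the compared groups alone and leaving out libraries were alternatives. Of the scripts, only the edgeR fit of the 4 pairwise comparisons was tested on simulated data. The 10 genes and the lists were chosen with earlier results of these data known. All 10 genes were named, and of the 6 pathway lists up to 4 genes per comparison and direction with the largest fold change among those that passed and had a mean log2 CPM of 1 or more. Further examples (CTC1 in normoxia, MXD1 in hypoxia, and the hypoxia markers) were chosen after their values were seen. Per length, the canonical transcript was used, and all annotated exons only where stated. Figures were drawn with matplotlib. The result of 1 gene is not reported here.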

Additional observations from a re-analysis of the deposited data

Results flagged for a closer look

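NOLC1, a chaperone of the H/ACA particles that carry DKC1 and NOP10, was the only 1 of the 55 pathway genes for which the effect of onametostat differed between oxygen levels by edgeR's interaction test, at 0.274 on the log2 scale (95% interval 0.15 to 0.39, adjusted p = 0.0422). Its effect was 0.11 (adjusted p = 0.0275) in normoxia and 0.38 (adjusted p = 9.54e-07) in hypoxia. The test called 0.497% of all genes, so 1 call near the threshold is not read as a result about the 55 genes. Over all genes it called 33 higher and 40 lower. These counts were 0 and 1 without DMSO normoxia library 1, 0 and 2 without onametostat hypoxia library 1, and 97 and 86 without onametostat hypoxia library 3. Whether NOLC1 kept its call in such fits was not tested. Libraries 2 and 3 of onametostat in hypoxia hold fewer reads than the rest, and their part in this difference was not tested.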

How the results depend on the processing

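Over 22 alternative settings, 1036 of 1085 values of the 10 genes kept their side of the threshold, 40 fell below it, 9 rose above it and 0 called values reversed, while 36 values that passed neither as reported nor in the alternative changed sign. Both filters on low counts kept all 14698 genes and so repeated the reported fit. Their 50 values each are among the 1036 and could not change. Calls of TERT, TINF2, WRAP53 and TERF2 held in all settings run. The number of genes called with onametostat in normoxia was 8 and ran from 5 to 8 when a library was left out, and the DEG count of 1 from 0 to 1. For onametostat in hypoxia it was 7 and 6 to 7. For hypoxia with DMSO it was 5 and ran from 3 to 5. For hypoxia with onametostat it was 1 and ran from 0 to 2, and was 2 without libraries 2 and 3 of onametostat in hypoxia. For the interaction it was 0 and ran from 0 to 1, and was 1 with DESeq2, which tested 5260 genes there, and with limma voom. The cause of these shifts was not tested.

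Experiment numbers 1 to 3 are shared by the groups, but libraries of the same number did not deviate together (18 pairs, r = -0.157 to 0.121, median 0.00955, 1 over 0.1). A replicate block changed 1 call of the 10 genes, that of TERF1 for onametostat in hypoxia (-0.15, adjusted p = 0.0539). With the replicate block and without library 3 of onametostat in hypoxia, a setting chosen after seeing the data, 2 genes were called for hypoxia with onametostat and 1 for the interaction. Depth limits TERT and library 3 of onametostat in hypoxia most, where 2978 genes have no count.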
